A study of Mus musculus with 2 samples.

Results

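GABA-A receptor subunits were described in the neural tube of mouse embryos from 7 genes taken by name: the alpha subunits Gabra2, Gabra3, Gabra4 and Gabra5, the beta subunits Gabrb1 and Gabrb2, and the gamma subunit Gabrg1. All 7 were found among the 43346 genes of the tables, which hold 19 genes of the Gabr family in all. The other family members enter only as class totals and are not described here. The material was total RNA of the embryonic neural tube, the forerunner of the brain and spinal cord, at 15.5 days of gestation. It formed 1 group of 2 libraries from the B6NCrl strain, healthy, with no treatment and no altered allele named in the labels. Replicate 1 came from a pool of 78 embryos and replicate 2 from a pool of 62, of both sexes, and 10 ng of RNA longer than 200 nucleotides entered each library. Since the pools are replicates of 1 condition, levels are given per library with mean ± SD (n = 2), the SD measures the spread between pools only, and nothing was tested.

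GABA-A receptors are pentameric chloride channels opened by gamma-aminobutyric acid (GABA). Most are assembled from alpha, beta and gamma subunits. GABA binds where a beta subunit meets an alpha subunit, and benzodiazepines bind where an alpha subunit meets a gamma subunit, so the alpha and gamma genes in use set much of a receptor's pharmacology. In immature neurons the chloride gradient is such that the channel often depolarizes the cell, and the mix of subunits changes between embryo and adult.

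Gene expected counts, the estimated reads per gene, summed to 34678043 in replicate 1 and 41355355 in replicate 2. The libraries stood apart in markers of other tissues. The 6 thymus markers summed to 306.24 TPM in replicate 1 and 0.29 TPM in replicate 2, where Cd3g and Foxn1 were at 0, and the 5 epithelial markers to 605.96 and 7.55 TPM. The 5 skeletal muscle markers summed to 138.53 and 253.95 TPM. Checked against the label, all 8 neuronal markers and all 6 markers of radial glia and astrocytes were detected, as were 5 of 6 markers of dorsal root ganglion neurons. The subunit values below are given per library, so that each library can be read alone. Neither pool was free of markers of other tissues, those of skeletal muscle being higher in replicate 2.

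Of the 7 genes, 4 lie in 1 cluster on chromosome 5 (GRCm38, GENCODE M21), over 1398 kb in the order Gabrg1, Gabra2, Gabra4 and Gabrb1. Gabrg1 (chr5:70751047-70842617), Gabra2 (chr5:70957597-71095849) and Gabra4 (chr5:71569749-71658308) are on the minus strand, and Gabrb1 (chr5:71658113-72149037) is on the plus strand. Gabrg1 and Gabra2 are 115 kb apart and Gabra2 and Gabra4 474 kb apart. Gabra4 and Gabrb1 are annotated head to head with an overlap of 196 bases. The overlap comes from a Gabrb1 transcript that is not among those counted, and M21 starts the counted one at position 71699932, outside it. Outside the cluster lie Gabra5 (chr7:57407672-57510059, minus), Gabra3 (chrX:72432681-72656848, minus) and Gabrb2 (chr11:42419757-42629028, plus).

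The sequence before the start of each cluster gene is shown because these neighbours differed in level, as given further on. The 4 windows are the 250 bases upstream of a RefSeq start (GRCm38.p6), written 5′ to 3′ on the gene's own strand, with every CpG in capitals.
Gabrg1, chr5:70842618-70842867, minus: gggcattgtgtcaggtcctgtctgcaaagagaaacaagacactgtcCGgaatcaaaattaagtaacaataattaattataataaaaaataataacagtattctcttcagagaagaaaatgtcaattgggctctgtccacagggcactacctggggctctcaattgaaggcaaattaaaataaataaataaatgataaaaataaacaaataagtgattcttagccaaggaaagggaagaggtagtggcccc
Gabra2, chr5:71095850-71096099, minus: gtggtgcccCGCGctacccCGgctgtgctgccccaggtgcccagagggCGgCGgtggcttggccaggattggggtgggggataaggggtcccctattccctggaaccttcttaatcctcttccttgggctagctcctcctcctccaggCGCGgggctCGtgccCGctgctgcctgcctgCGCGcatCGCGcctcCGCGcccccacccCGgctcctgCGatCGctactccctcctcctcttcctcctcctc
Gabra4, chr5:71658309-71658558, minus: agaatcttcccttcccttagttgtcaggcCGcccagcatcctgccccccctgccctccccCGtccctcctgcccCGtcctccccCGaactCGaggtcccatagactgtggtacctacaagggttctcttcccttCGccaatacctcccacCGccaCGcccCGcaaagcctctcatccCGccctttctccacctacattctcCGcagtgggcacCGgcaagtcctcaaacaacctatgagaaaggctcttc
Gabrb1, chr5:71699682-71699931, plus, before the start of the transcript that was measured: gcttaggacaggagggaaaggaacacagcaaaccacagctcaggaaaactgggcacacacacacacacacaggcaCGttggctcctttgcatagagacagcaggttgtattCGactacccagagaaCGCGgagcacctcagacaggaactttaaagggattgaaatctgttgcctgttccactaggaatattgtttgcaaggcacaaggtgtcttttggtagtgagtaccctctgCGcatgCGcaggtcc
The Gabra2 window has 18 CpGs and a GC content of 70%, and 78.3% of the 32817 mouse promoters of the same length have fewer CpGs. This window lies before the start of a coding Gabra2 transcript that was not counted. M21 starts a later version of the counted Gabra2 transcript at position 71094640. The Gabra4 window has 12 CpGs and 61.2% GC, with 66.5% of promoters having fewer. The Gabrb1 window has 6 CpGs and 50.8% GC, the median promoter having 6 CpGs and 52.4% GC. The Gabrg1 window has 1 CpG and 35.6% GC, and 7.87% of promoters have none. A second RefSeq start of Gabrb1, upstream at chr5:71657671-71657920, has 18 CpGs. Neither strand of these windows holds TATAAA, which 12.4% of all promoters hold. Among the 11 windows RefSeq gives for the 7 genes, TATAAA was found for 2 genes, Gabra3 and Gabrb2. The counts of CpGs and the matches describe these windows only.

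All 7 subunit genes were detected, meaning that each library gave them 1 TPM or more, which 35.8% of all genes reached. TPM, a length-scaled share of a library's transcripts, divides reads by transcript length, so that levels of different genes can be compared. All 7 also stood at 5 TPM or more in both libraries, as did 26.5% of all genes. Together they summed to 163.68 TPM in replicate 1 and 189.64 TPM in replicate 2 (176.7 ± 18.4). Their median, 17.56 and 18.48 TPM, was near that of all detected genes, 17 and 15.98 TPM. In bulk RNA, fewer cells of a type and less RNA per cell cannot be told apart, so a level says nothing of how many cells carry a subunit. At this depth 3 counts correspond to between 0.024 and 0.059 TPM for these genes, and the genes had between 663 and 3764 expected counts.

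Among the alpha subunits, Gabra5, Gabra2 and Gabra3 stood together at about the same level and Gabra4 far below them. Gabra5, known in the adult brain for receptors outside synapses in the hippocampus, had 40.26 TPM in replicate 1 and 47.11 TPM in replicate 2 (43.7 ± 4.84). Gabra2, the alpha subunit linked to the anxiolytic and spinal analgesic actions of benzodiazepines in mice, had 39.08 and 47.35 TPM (43.2 ± 5.85). Gabra3, best known from monoaminergic neurons and the reticular thalamus, had 37.62 and 43.52 TPM (40.6 ± 4.17). For these 3 genes the libraries overlapped between genes, Gabra5 leading in replicate 1 and Gabra2 in replicate 2, so their order was not resolved. Gabra4, part of extrasynaptic receptors in the adult thalamus and dentate gyrus, had 9.77 and 9.61 TPM (9.69 ± 0.113), with no overlap with the other alpha subunits. Gabra5 exceeded Gabra4 by 4.12-fold and 4.90-fold, Gabra2 by 4.00-fold and 4.93-fold, and Gabra3 by 3.85-fold and 4.53-fold.

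As shares of the summed TPM of the 4 listed alpha subunits, Gabra5 held 31.8% in replicate 1 and 31.9% in replicate 2 (31.8 ± 0.107%). Gabra2 held 30.8% and 32.1% (31.5 ± 0.880%), Gabra3 29.7% and 29.5% (29.6 ± 0.140%) and Gabra4 7.71% and 6.51% (7.11 ± 0.847%). By expected counts, which are not divided by length, Gabra3 led in both libraries. On that scale Gabra3 held 34.9% and 34.7%, Gabra5 28.9% and 29.4%, Gabra2 25.2% and 26.5%, and Gabra4 11.04% and 9.44%. The listed genes held 95.5% of the TPM of all 6 alpha genes in the tables in replicate 1 and 96.6% in replicate 2.

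**Figure D1:**
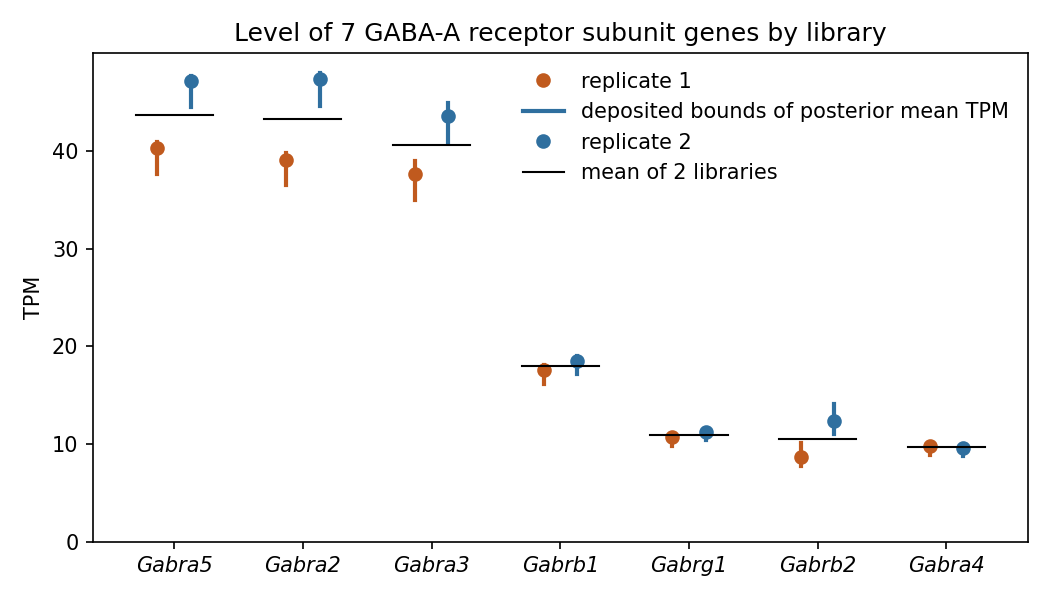
TPM of each subunit gene in replicate 1 (orange points) and replicate 2 (blue points), ordered by the mean (black line); vertical bars in each library's colour are the deposited bounds around the posterior mean TPM, whose level is not stated. Gabra5, Gabra2 and Gabra3 lie between 37.62 and 47.35 TPM and the other 4 genes between 8.67 and 18.48 TPM.

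Of the beta subunits, which complete the GABA site and are needed for receptors to reach the surface, Gabrb1 was the higher of the listed pair. Gabrb1 had 17.56 and 18.48 TPM (18.0 ± 0.651). Gabrb2, a leading beta subunit of the adult brain, had 8.67 and 12.34 TPM (10.5 ± 2.60), the widest spread of the 7 genes at 24.7% of its mean. The groups of values did not overlap, and Gabrb1 exceeded Gabrb2 by 2.03-fold in replicate 1 and 1.498-fold in replicate 2. Gabrb1 held 66.9% and 59.96% of the TPM of the pair (63.5 ± 4.94%). Over all 3 beta genes in the tables Gabrb1 held 24.9% and 23.2% and Gabrb2 12.3% and 15.5%, so most beta TPM was in the class member not described here. The listed alpha subunits summed to 4.83 and 4.79 times the listed beta subunits, a ratio that leaves out that beta gene.

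Gabrg1, a gamma subunit known from glia and from regions such as the amygdala, had 10.72 and 11.23 TPM (10.98 ± 0.361). It held 10.7% and 10.2% of the TPM of the 3 gamma genes in the tables. Across all 7 genes, the gap between Gabra3 and Gabrb1 was 2.25-fold of the means and that between Gabrb1 and Gabrg1 was 1.64-fold. In expected counts Gabrb1 and Gabrg1 were closer, at 1165 and 1111 in replicate 1 and 1463 and 1389 in replicate 2. Gabrg1 was above Gabra4 in both libraries, while the values of Gabrb2 spanned both of these genes, so the place of Gabrb2 in the order was not resolved. The 7 genes held 53.1% and 54.5% of the TPM of all 19 Gabr genes.

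**Figure D2:**
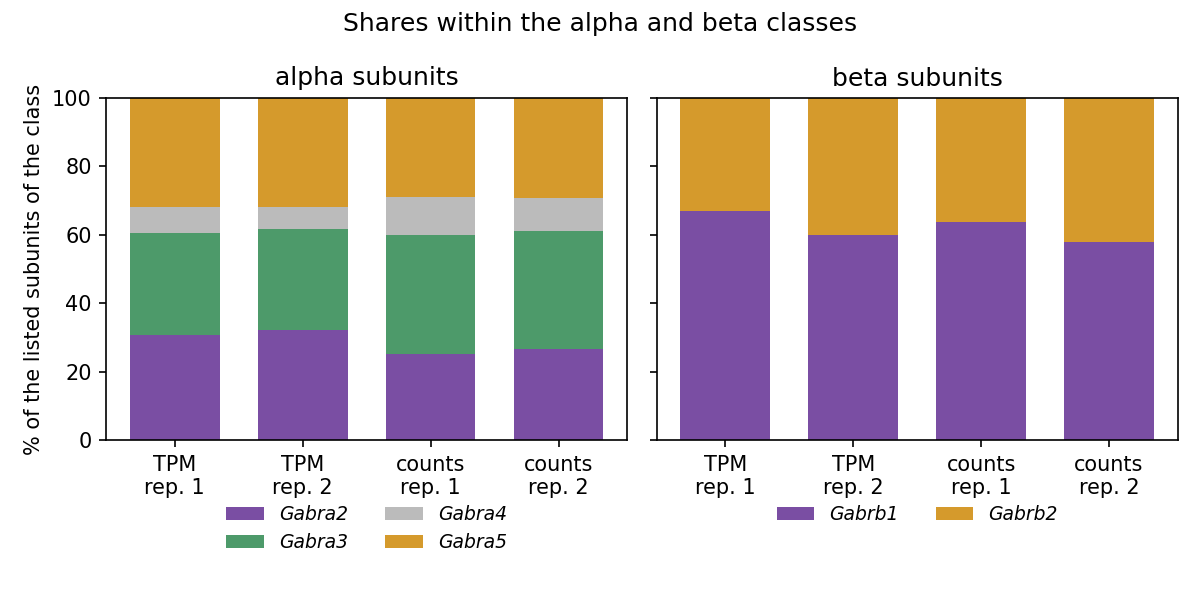
Percent of the summed level of the listed alpha subunits (left) and beta subunits (right) in each gene, for each library, by TPM and by expected counts. Gabra4 is the thinnest alpha band, 7.71% and 6.51% by TPM, and Gabrb1 takes more than Gabrb2 in every bar.

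Within the chromosome 5 cluster, Gabra2 exceeded Gabrg1, the next gene along, by 3.65-fold in replicate 1 and 4.22-fold in replicate 2 in TPM, and by 1.79-fold and 2.07-fold in expected counts. Gabrb1 exceeded Gabra4, its head-to-head partner, by 1.80-fold and 1.92-fold in TPM, and by 1.34-fold and 1.43-fold in expected counts. The window with most CpGs of those printed above belongs to Gabra2, the highest of the 4, and the one with fewest to Gabrg1. The Gabra2 window is not that of the transcript behind the Gabra2 level. Gabra4, the lowest of the 4, has more CpGs than the higher Gabrb1 and Gabrg1. The window of the second Gabrb1 start has 18 CpGs, as many as that of Gabra2. A link between CpGs and level was not tested. The 4 cluster genes together carried 47.1% and 45.7% of the TPM of the 7.

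The transcript tables list 1 transcript for each of 5 genes, 3 for Gabra3 and 5 for Gabrb2. For Gabra3, the coding transcript ENSMUST00000055966 held 91.08% of the gene's TPM in replicate 1 and 89.99% in replicate 2. A processed transcript of 589 bases, ENSMUST00000137517, which codes for no protein, held 7.86% and 9.16% of TPM but 1.17% and 1.37% of expected counts. A coding transcript with an upstream start, ENSMUST00000114554, held 1.06% and 0.86% of TPM. Most Gabra3 RNA was assigned to 1 coding form in both libraries.

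For Gabrb2, the coding transcript ENSMUST00000007797 held 85.68% and 77.89% of TPM, at 7.42 and 9.61 TPM. The noncoding transcript ENSMUST00000136050 of 658 bases held 12.58% and 14.81% of TPM and 2.04% and 2.54% of expected counts. The noncoding ENSMUST00000143626 held 1.74% and 3.09%, and ENSMUST00000140463 was listed at 0 in both libraries. The other coding transcript, ENSMUST00000192403, was at 0 in replicate 1 and at 0.52 TPM in replicate 2, from 0 and 19.79 expected counts. Its deposited bounds, up to 0.362 TPM in replicate 1 and 0.0786 to 1.32 TPM in replicate 2, overlap, so the pools were not told apart in it.

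ENSMUST00000192403 has a coding exon that ENSMUST00000007797 lacks, exon 9 of its 10 exons (GRCm38, chr11:42602115-42602228, plus strand). The exon has 114 bases, 38 codons with no remainder. The coding sequence with it counts 1536 bases, against 1422 bases in ENSMUST00000007797. It is printed because it accounts for the whole difference in coding length between the forms.
Gabrb2 exon 9, chr11:42602115-42602228: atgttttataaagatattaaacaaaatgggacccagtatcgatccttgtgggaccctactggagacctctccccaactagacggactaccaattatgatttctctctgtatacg

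For 2 of the 7 genes, the counted transcript is much shorter than the longest coding transcript of M21. The Gabra2 transcript in the tables is 2392 bases long. GENCODE M21 holds a later version of it, of 2245 bases, typed as subject to nonsense-mediated decay. The longest coding Gabra2 transcript of M21 has 5852 bases, 2.45 times the length in the tables. The Gabrb1 transcript is 3089 bases long in the tables and 13737 bases in M21 (4.45 times). For the other 5 genes the lengths differ by less than 1%. Whether the Gabra2 and Gabrb1 levels would move with the longer models was not tested, since the files start from counts on the M4 models.

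**Figure D3:**
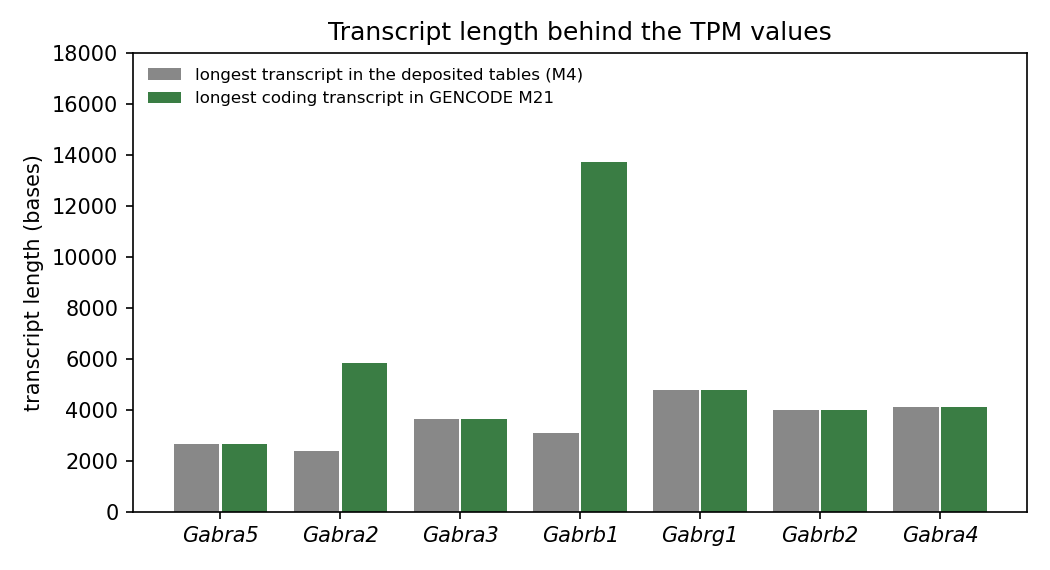
Length in bases of the longest transcript each subunit gene has in the deposited tables (grey, GENCODE M4) and of its longest coding transcript in GENCODE M21 (green). The bars differ for Gabra2, 2392 against 5852 bases, and Gabrb1, 3089 against 13737 bases.

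Between the pools, 6 of the 7 subunit genes were lower in replicate 1, while 46.6% of all genes with a mean of 1 TPM or more were. None of the 7 was 2-fold apart, as were 6.27% of those genes. On the log2((TPM + 1) ratio) scale, replicate 1 over replicate 2, the difference was -0.46 for Gabrb2, -0.27 for Gabra2, -0.22 for Gabra5, -0.21 for Gabra3, -0.07 for Gabrb1, -0.06 for Gabrg1 and 0.02 for Gabra4. The sign of Gabra4 turned to -0.01 with TMM-normalized CPM and -0.02 with DESeq2 size factors, so its direction was not settled. The deposited bounds overlapped between the libraries for Gabra4, Gabrb1 and Gabrg1, and not for Gabra2, Gabra3, Gabra5 and Gabrb2. The share of all genes whose bounds do not overlap was not computed, and the bounds state no level. No difference between the pools is read from them. The median of the 7 was -0.21, against 0.02 for all genes (quartiles -0.14 and 0.22).

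Neuronal markers moved the same way, with a median of -0.27 and 8 of 8 lower in replicate 1, summing to 3411.25 and 3999.22 TPM. Set against that sum, the 7 subunits were at 4.80% in replicate 1 and 4.74% in replicate 2. Gabra5 was at 1.18% in both libraries, Gabra2 at 1.15% and 1.18% and Gabra3 at 1.10% and 1.09% of the neuronal sum. Gabrb2 was at 0.254% and 0.309%, and Gabra4 at 0.286% and 0.240%. Gabrb1 was at 0.515% and 0.462%, and Gabrg1 at 0.314% and 0.281%. The near-equal totals thus cover genes that were higher and genes that were lower in replicate 2 on this scale. The direction was not particular to neurons. Lower in replicate 1 were also 5 of 6 dorsal root ganglion, 5 of 6 radial glia and astrocyte and 5 of 5 skeletal muscle markers. So were 2 of 5 oligodendrocyte precursor markers, but no thymus or epithelium marker. Radial glia and astrocyte markers summed to 1691.74 and 2120.89 TPM. The medians were -0.18 for dorsal root ganglion neurons, -0.13 for radial glia and astrocytes, 0.16 for oligodendrocyte precursors and -0.81 for skeletal muscle. They were 4.74 for thymus and 4.18 for epithelium; their sums are given above. The part of these cell types in the subunit differences was not tested.

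**Figure D4:**
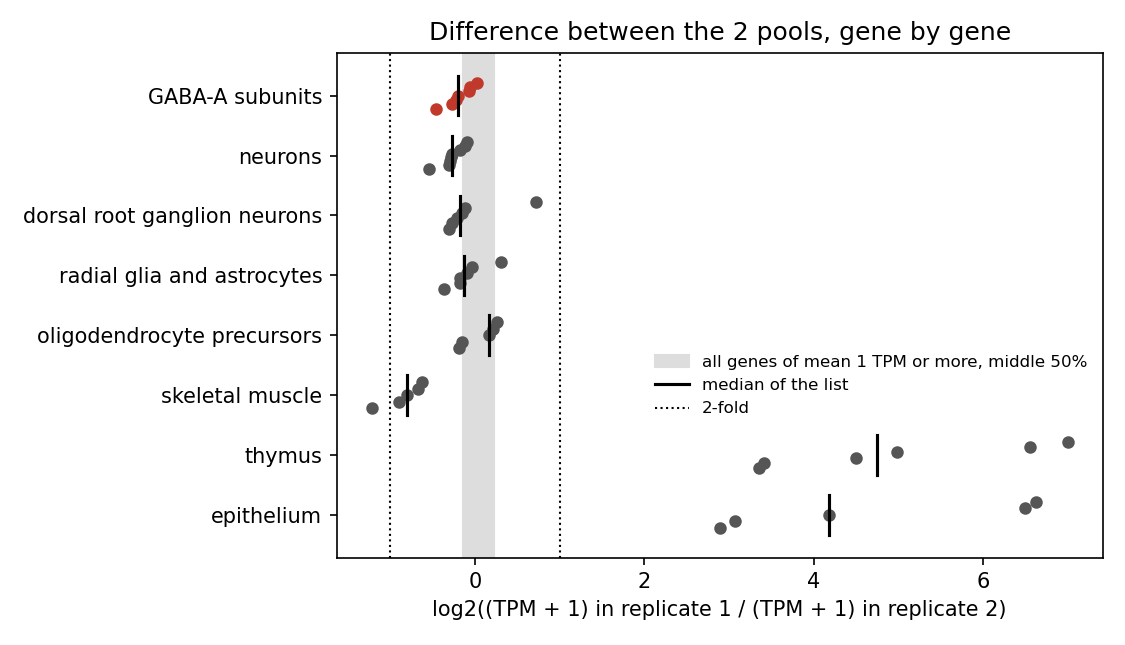
Log2 ratio of TPM + 1, replicate 1 over replicate 2, for each gene (points) of the 7 subunits (red) and of marker lists (grey), with the median of each list (black line), the middle 50% of all genes of mean 1 TPM or more (grey band) and 2-fold (dotted lines). The subunits lie between -0.46 and 0.02, with a median of -0.21. The medians are -0.27 for neuronal, -0.18 for dorsal root ganglion and -0.13 for radial glia and astrocyte markers. Thymus and epithelium markers lie far to the right.

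Genes around the receptor were read from lists of its pathway. All 7 genes reported of GABA synthesis, release, uptake and breakdown were detected. The highest were the GABA transaminase Abat at 90.29 TPM in replicate 1 and 90.16 TPM in replicate 2, the GABA transporter Slc6a11 at 85.8 and 90.97 TPM, and Gad1, described next. The lowest were the vesicular transporter Slc32a1 at 7.97 and 9.11 TPM and Aldh5a1, which completes GABA breakdown, at 11.34 and 13.37 TPM. Of the glutamate decarboxylases that make GABA, Gad1 had 68.2 and 79.04 TPM and Gad2 22.62 and 28.59 TPM, a ratio of 3.02 and 2.76.

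All 19 genes of receptor assembly, trafficking and anchoring were detected. The highest were Gabarap, a ubiquitin-like protein that binds gamma subunits and also serves autophagy, at 453.36 and 464.92 TPM, its relative Gabarapl2 at 331.95 and 395.55 TPM, and the trafficking adaptor Hap1 at 191.18 and 216.01 TPM. The lowest were Plcl1 at 2.8 and 3.36 TPM and Plcl2 at 7.19 and 7.55 TPM, phospholipase C-like proteins known to bind Gabarap and protein phosphatases. Gphn, which encodes the scaffold gephyrin, had 40.83 and 47.27 TPM, and Lhfpl4, a transmembrane partner of synaptic receptors, 36.96 and 43.71 TPM.

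Both chloride transporters were detected. The chloride exporter Slc12a5 had 30.55 and 38.69 TPM and the importer Slc12a2 3.54 and 3.45 TPM, a ratio of 8.63 and 11.2. Of the metabotropic GABA-B receptor subunits, Gabbr1 had 64.02 and 73.92 TPM and Gabbr2 8.04 and 10.22 TPM. Dbi, which encodes the diazepam binding inhibitor, a peptide that acts at the benzodiazepine site, had 1232.63 and 1558.51 TPM and is also an acyl-CoA binding protein of many cells. Srd5a1, an enzyme of neurosteroid synthesis, had 13.96 and 14.83 TPM. Tspo, a mitochondrial protein that Dbi binds, had 24.18 and 7.7 TPM and was the 1 gene of these lists 2-fold apart between the pools, in the direction of the thymus and epithelium markers.

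Glycine receptors, the other inhibitory chloride channels of the spinal cord, were detected through 4 of 5 subunit genes. Glra2, the embryonic alpha subunit, had 46.33 and 51.93 TPM, and the beta subunit Glrb 44.92 and 45.13 TPM. Glra1 had 2.67 and 2.88 TPM and Glra3 2.31 and 2.32 TPM, while Glra4 was at 0.03 TPM in replicate 1 and at 0 in replicate 2. The 7 GABA-A subunits summed to 1.70 and 1.85 times the 5 glycine receptor genes, a ratio that leaves out the other Gabr genes. All 19 Gabr genes summed to 308.08 and 347.69 TPM, against 96.26 and 102.26 TPM for the 5 glycine receptor genes.

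**Figure D5:**
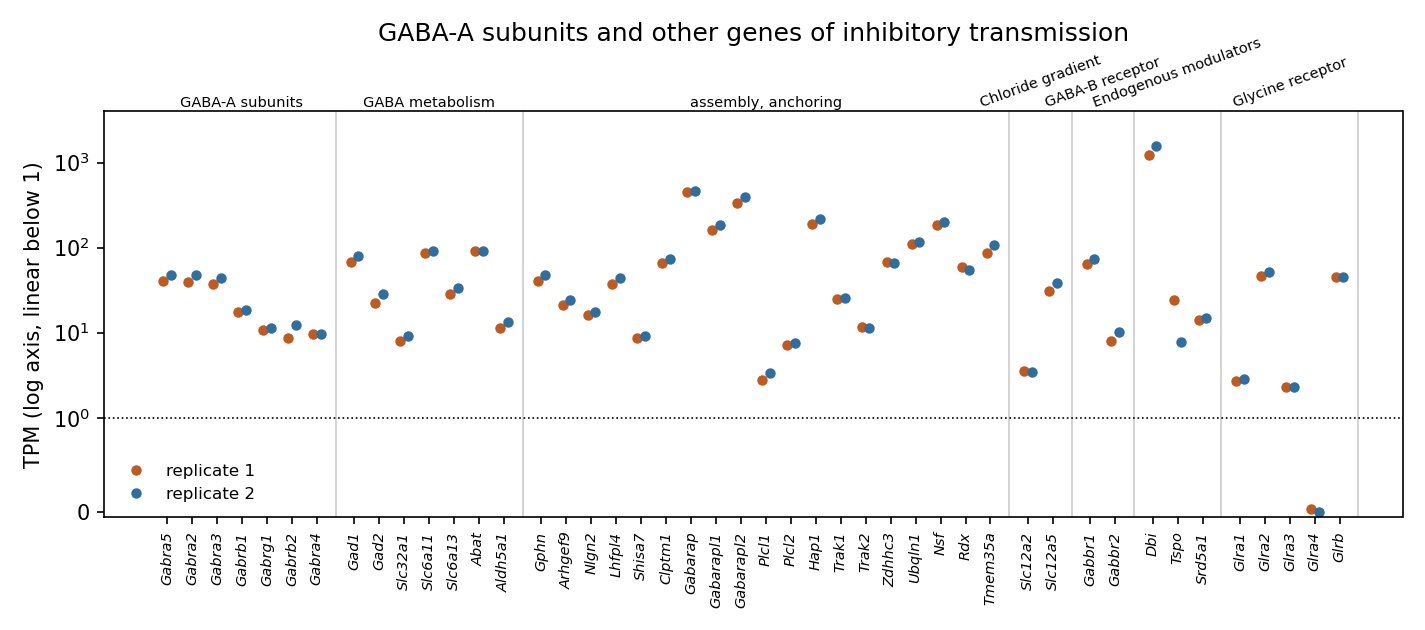
TPM on a log axis (linear below 1) of the 7 subunit genes and of the pathway lists, in replicate 1 (orange) and replicate 2 (blue); the dotted line is 1 TPM, the detection threshold. Dbi is the highest at 1232.63 and 1558.51 TPM, Glra4 is the 1 gene under the line, and the points of Tspo are the farthest apart.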

How the data were processed

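Total RNA was measured in 2 libraries, biological replicates of 1 group per the labels. Per the notes deposited with each sample, tables were made from transcriptome alignments on mm10 with GENCODE M4. The quantifier, its version and strand handling are not stated. Per the file headers, the gene and transcript tables give an expected count per gene or transcript. TPM and posterior mean TPM were deposited by the authors, scaled over all entries, spike-ins included. FPKM, relative to effective length, was deposited too. Each transcript's percent of its gene's TPM was deposited in the transcript tables. The bounds of the posterior mean, treated as a score, are the authors' and state no level.

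Of 69691 entries, 43346 are genes, of which 42462 matched GENCODE M21 symbols by identifier without version. Sums, shares, ratios and log2((TPM + 1) ratio) were computed per library in Python 3.11.15 (numpy 2.4.6, pandas 2.3.3). Rounded expected counts gave TMM scaling (edgeR 4.0.16) and size factors (DESeq2 1.42.0, R 4.3.3) for alternatives only. Scaling and the 2-fold call were tested on simulated data. Floors cover counting error only. Members and lists were chosen with earlier results of these data known. Named genes were the 7 subunits and, per list, the highest 3, the lowest 2 and any under 1 TPM in both libraries, with others where a description needed them; some listed genes are not reported here. Sequences are from RefSeq (GRCm38.p6, promoters) and the GRCm38 genome with GENCODE M21 (exon).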

Additional observations from a re-analysis of the deposited data

How the results depend on the processing

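The summed level of 176.7 TPM came to 110.6 in FPKM and 335 in CPM with TMM library sizes (which is not per length). It came to 128.3 TPM over protein-coding transcripts only. There Gabra2 drops to 0, because M21 types a later version of its single deposited transcript as a nonsense-mediated decay target. The type of the counted M4 model was not known, so values over protein-coding transcripts rest on the M21 type. Of the listed alpha total, Gabra5 held 31.8%, against 29.1% in CPM, 48.2% over protein-coding transcripts and 30.6% with all alpha genes in the tables. Gabrb1 held 63.5% of the listed beta total and 24.0% with all beta genes. Without either replicate, the detected genes stayed at 7 to 7, the sum ran from 163.68 to 189.64 TPM, the Gabra5 share from 31.8 to 31.9% and the Gabrb1 share from 59.96 to 66.9%. In CPM, Gabra3 led at 85.3, followed by Gabra5 at 71.5 and Gabra2 at 63.5. None of the 7 genes was called apart under any setting run, including a fold of 1.5, which 12.7% of the 16524 genes with a mean of 1 TPM or more passed. With 1 library left, that call has no value. Of the other results, single genes were labelled the same in 64 settings and moved in 9. Levels and shares were judged within 1 SD, and log2 ratios within the width of the deposited bounds of replicate 1. With 2 libraries, leaving 1 out always stays within 1 SD, so those settings say nothing of stability. For single genes they are counted among the 64. No paired analysis was possible because the libraries form 1 group and nothing was tested. Depth did not limit detection of these genes, but 2 pools limit every SD, and the minor transcripts of Gabrb2 rest on at most 27.04 expected counts.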
